A study of Mus musculus with 9 samples.

Results

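Genes for fatty acid desaturases and elongases were followed in basal cells of the mouse tail epidermis at D4 after wounding, next to the wound and far from it. The list held 10 genes, namely the desaturases Scd1, Scd2, Fads1, Fads2 and Fads3 and the elongases Elovl1, Elovl4, Elovl5, Elovl6 and Elovl7, grouped by their enzyme families. A gene was measured where the array's annotation gave a probe set that symbol alone, and 9 of the 10 were measured among 17097 genes in all. Scd2 was not analysed here. The 9 genes had 24 probe sets, a probe set being a group of short probes for 1 transcript. For each gene the brightest probe set over the 9 arrays is given first and the 15 others beside it.

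The samples formed 3 groups of 3 Affymetrix arrays, all from CD1 mice and each array made from 300 sorted basal cells of the interfollicular epidermis, positive for α6 integrin and negative for CD34. Leading edge (LE) cells came from a punch 4 mm in diameter around a wound of 3 mm and were positive for α5 integrin. Cells of the proliferative hub came from a punch 6 mm in diameter and lacked α5 integrin at the surface. The control was taken far from the wound at the same time point, and the labels give it no α5 integrin gate, so the region and the gate cannot be told apart. Tissue of 5 mice was pooled for a sample. The replicates are biological by the labels and technical by the methods, and the p-values below therefore rest on a spread that may be technical. All values are log2 signals after RMA, the authors' background correction and normalisation, in which a step of 1 is a doubling. The nonspecific background, read from 23 probe sets, had its median at 4.66, and the 95th percentile of their means, 7.24, is used below as the dim limit. Array medians lay between 6.47 and 6.53. The arrays carried the keratins of basal cells, with Krt5 at 13.23 to 13.34 and Krt14 at 13.26 to 13.34 on the 9 arrays. Not all basal markers were level. Itga6, the gene of α6 integrin, was at 12.25 to 12.31 at the LE, 11.76 to 11.83 in the hub and 11.52 to 11.64 in the control. Itga6 and Itgb4 were higher and Dst lower at the LE than in both other groups (limma, adjusted p under 0.05). The remaining 4 of 7 basal markers did not pass in either comparison. Cd34, the excluded marker, was at 4.50 to 4.95. Itga5, the gene of α5 integrin, was at 9.06 to 9.17 at the LE, 6.46 to 7.47 in the hub and 6.23 to 6.50 in the control.

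Desaturases put a double bond into the carbon chain of a fatty acid, and elongases carry out the rate-setting condensation that adds carbons to it. Between them they fix the length and the saturation of the acyl chains of membranes, of sebum and of the ceramides that seal the skin barrier. In epidermis the very long chains made by the elongases go largely into ceramides, while Scd1 and Elovl6 are known from sebaceous glands and other lipid-producing cells.

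The genes did not move as a group (plot of the 9 genes by array and plot of the differences). Fads3 was much higher at the LE and intermediate in the hub, Elovl1 followed the same order with smaller steps, and Elovl7 was lower at the LE than in both other groups. Between LE and hub, 2 of the 9 genes were higher, 1 was lower and 6 did not pass the test, beside 5.39% of all genes called higher and 5.23% called lower. Against control, the LE had 3 higher, 1 lower and 5 not called, beside 11.9% and 10.8% of all genes. The hub had 2 higher, 0 lower and 7 not called against control, beside 4.16% of all genes higher and 3.12% lower. The median difference over the 9 genes was -0.10 between LE and hub, 0.05 between LE and control and 0.14 between hub and control, and over all genes it was -0.01, 0.02 and 0.03. At an unadjusted p under 0.05 by limma, 0 of the 9 genes were lower in the hub than in the control. Over all 17097 genes, 1402 were lower at that threshold, so a count of 0 among 9 says little about these genes. The LE and the hub were set against the same 3 control arrays, so those 2 comparisons share samples. A group that holds fewer cells of a type and a group whose cells hold less RNA cannot be told apart in these sorted pools.

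**Figure D1:**
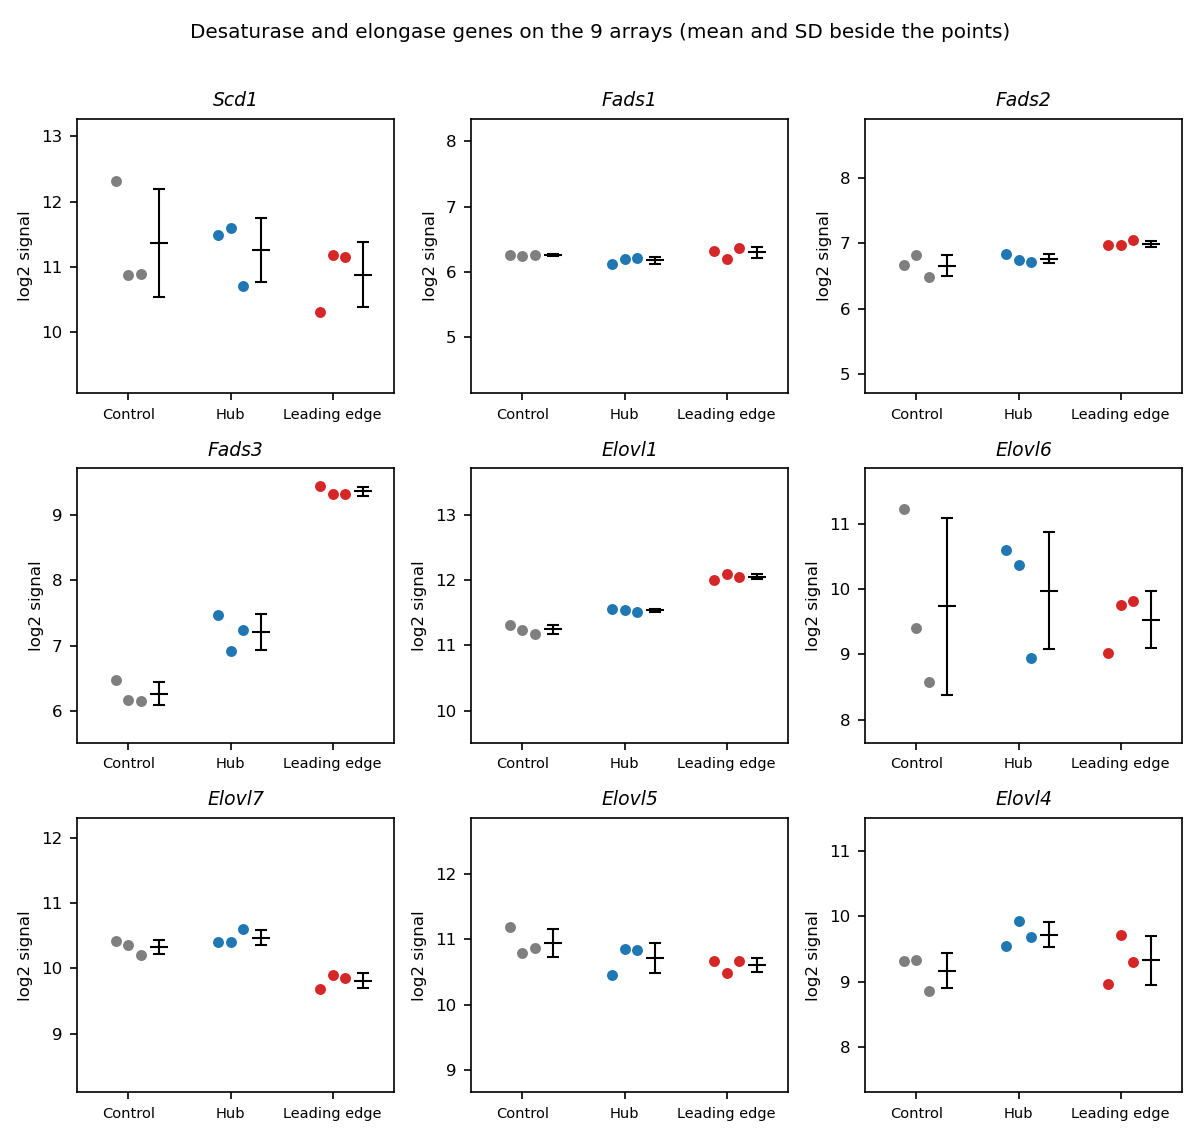
Log2 signal of the 9 measured genes (brightest probe set) on each array, with the mean and SD of the 3 arrays of a group beside the points. Every panel spans the same range of log2 units. Fads3 steps up from control to hub to LE, Elovl1 does so in smaller steps, Elovl7 is lowest at the LE, and Scd1 and Elovl6 scatter widely inside each group.

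**Figure D2:**
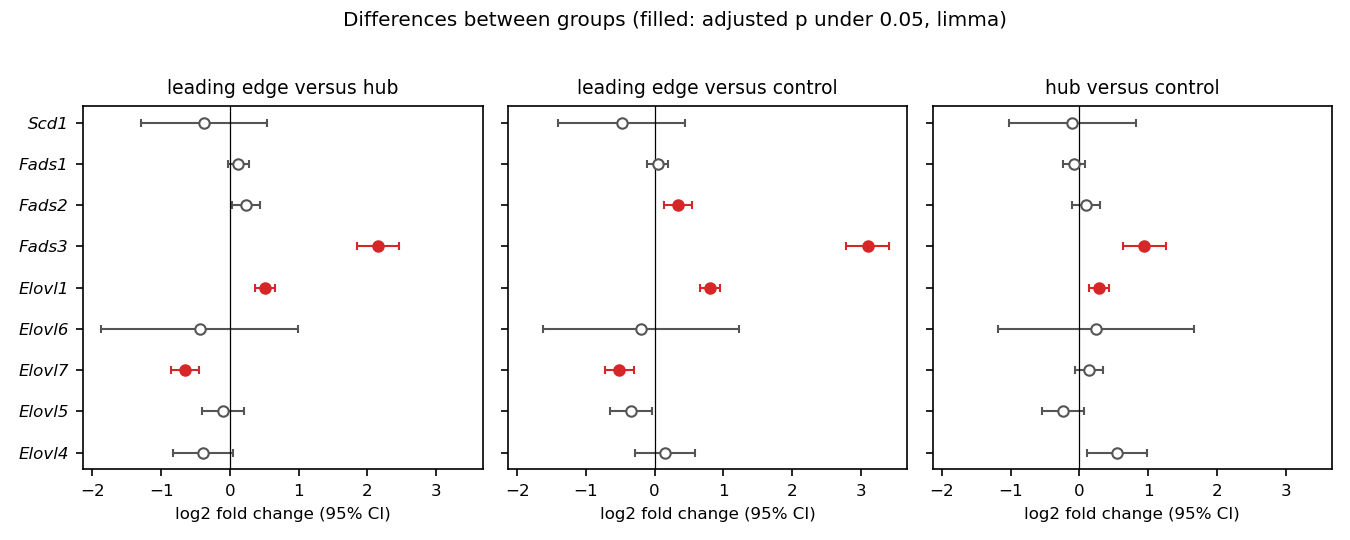
Log2 fold change of each gene in the 3 comparisons with its 95% confidence interval from limma, filled red where the adjusted p was under 0.05. The intervals of Scd1 and Elovl6 are the widest of the 9, and Fads3 lies farthest from 0 in each comparison.

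The promoters of the genes called at the LE are shown because Fads3 and Elovl1 were higher there, Elovl7 was lower, and Fads2 is the neighbour of Fads3. Each run is 250 bases before and 50 bases after the annotated transcription start from RefSeq (GRCm38.p6), printed 5′ to 3′ on the strand of the gene, with capitals for matches on either strand to CCAAT (the CCAAT box) or GGGCGG (the GC box).
Fads3 (chr19:10041298-10041597, plus strand): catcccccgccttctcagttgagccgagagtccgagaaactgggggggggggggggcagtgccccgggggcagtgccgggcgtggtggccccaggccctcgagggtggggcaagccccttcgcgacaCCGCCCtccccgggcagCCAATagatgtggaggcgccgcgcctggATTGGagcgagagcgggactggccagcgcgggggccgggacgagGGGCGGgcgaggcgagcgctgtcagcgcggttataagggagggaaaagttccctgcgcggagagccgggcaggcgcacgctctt
Fads2 (chr19:10101454-10101753, minus strand): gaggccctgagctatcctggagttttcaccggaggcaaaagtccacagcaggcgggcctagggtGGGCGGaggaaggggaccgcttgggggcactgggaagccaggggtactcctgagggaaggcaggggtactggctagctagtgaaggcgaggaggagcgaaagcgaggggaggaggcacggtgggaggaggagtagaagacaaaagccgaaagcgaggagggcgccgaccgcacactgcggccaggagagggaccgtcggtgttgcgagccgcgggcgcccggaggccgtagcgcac
Elovl1 (chr4:118427843-118428142, plus strand): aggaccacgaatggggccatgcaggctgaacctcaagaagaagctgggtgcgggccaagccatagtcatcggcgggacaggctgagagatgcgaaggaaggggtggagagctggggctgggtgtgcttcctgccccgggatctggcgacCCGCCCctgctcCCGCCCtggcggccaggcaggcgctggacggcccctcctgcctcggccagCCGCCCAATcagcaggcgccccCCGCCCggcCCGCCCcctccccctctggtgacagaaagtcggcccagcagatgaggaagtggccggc
Elovl7 (chr13:108214154-108214453, plus strand): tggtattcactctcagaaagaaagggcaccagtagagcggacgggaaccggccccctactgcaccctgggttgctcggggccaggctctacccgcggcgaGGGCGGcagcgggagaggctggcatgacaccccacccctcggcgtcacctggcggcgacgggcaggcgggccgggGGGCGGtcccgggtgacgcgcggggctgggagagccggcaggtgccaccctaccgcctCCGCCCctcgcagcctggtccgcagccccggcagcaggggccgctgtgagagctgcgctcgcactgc
Windows were found for 7 of the genes, namely Elovl1, Elovl4, Elovl5, Elovl6, Elovl7, Fads2 and Fads3. The Fads3 window held 2 CCAAT boxes and 2 GC boxes, and the Elovl1 window shown held 1 CCAAT box, which overlaps the last letters of a GC box, and 5 GC boxes in all. Elovl1 had another window, at chr4:118429451-118429750, which is not shown and held 0 CCAAT boxes and 2 GC boxes. The Elovl7 window held 3 GC boxes and no CCAAT box, and that of Fads2 held 1 GC box. Such letters are common, since 37.4% of 32851 promoter windows of the same length held CCAAT and 35.7% held GGGCGG. None of the 4 windows held TCACNCCAC, a form of the sterol response element found in 1.24% of windows, or TGANTCA, an AP-1 motif found in 7.81%, or CACGTG, the E-box found in 7.15%. A match is a description of the letters and not of a bound site.

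Fads3 desaturates the sphingoid base of ceramides, unlike Fads1 and Fads2, which act on fatty acids. It was at 9.45, 9.32 and 9.33 on the LE arrays, at 7.47, 6.92 and 7.24 in the hub and at 6.47, 6.17 and 6.16 in the control. The 3 groups did not overlap, and the control arrays and hub 2 lay under the dim limit. The means were 9.37 ± 0.07 at the LE, 7.21 ± 0.28 in the hub and 6.27 ± 0.18 in the control (SD, n = 3). The LE exceeded the hub by 2.15 ± 0.14 (SE), a 4.45-fold difference (limma, adjusted p = 2.36e-05). It exceeded the control by 3.10 ± 0.14, or 8.58-fold (limma, adjusted p = 7.27e-07). The hub exceeded the control by 0.95 ± 0.14, or 1.93-fold (limma, adjusted p = 0.00379). RMA compresses differences between dim signals, and the control of Fads3 lay in that range.

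The other Fads3 probe sets had the same order with smaller steps (plot of the probe sets of Fads3 and Elovl7). Probe set 1435910_PM_at was at 7.97, 8.03 and 7.89 at the LE, at 6.15, 6.49 and 6.61 in the hub and at 5.73, 5.80 and 5.88 in the control. It differed by 1.55 between LE and hub, by 2.15 between LE and control and by 0.61 between hub and control, and all 3 differences passed the test (limma, highest adjusted p 0.0147). All hub and control arrays of this probe set lay under the dim limit. Probe set 1449219_PM_at, under the dim limit on every array, was higher at the LE by 1.09 against the hub and by 1.18 against the control, both called. Its difference of 0.09 between hub and control was not called (limma, adjusted p = 0.825). Fads3 thus had 3 of 3 probe sets higher at the LE in both comparisons and 2 of 3 higher in the hub.

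The LE cells were gated on α5 integrin, so the levels of Itga5 stand beside those of Fads3. In the hub, Itga5 was at 6.46, 7.47 and 6.81, and the array with the most Itga5, hub 2, had the least Fads3 by the brightest probe set, while hub 1 had the least by 1435910_PM_at. By 1449219_PM_at hub 2 had the most Fads3 of the hub arrays, at 5.00 beside 4.66 and 4.48. Over the 9 arrays, each profile centred on its own mean, the genes closest to Fads3 were Flrt2 (root mean square difference 0.15), Kctd12 (0.25) and Gprc5a (0.25). Flrt2, a membrane protein of cell guidance, was at 11.30, 11.17 and 11.36 at the LE, at 8.85 to 9.14 in the hub and at 7.84 to 8.41 in the control. Among the measured desaturases and elongases, the nearest to Fads3 was Elovl1, at a root mean square difference of 0.98.

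**Figure D3:**
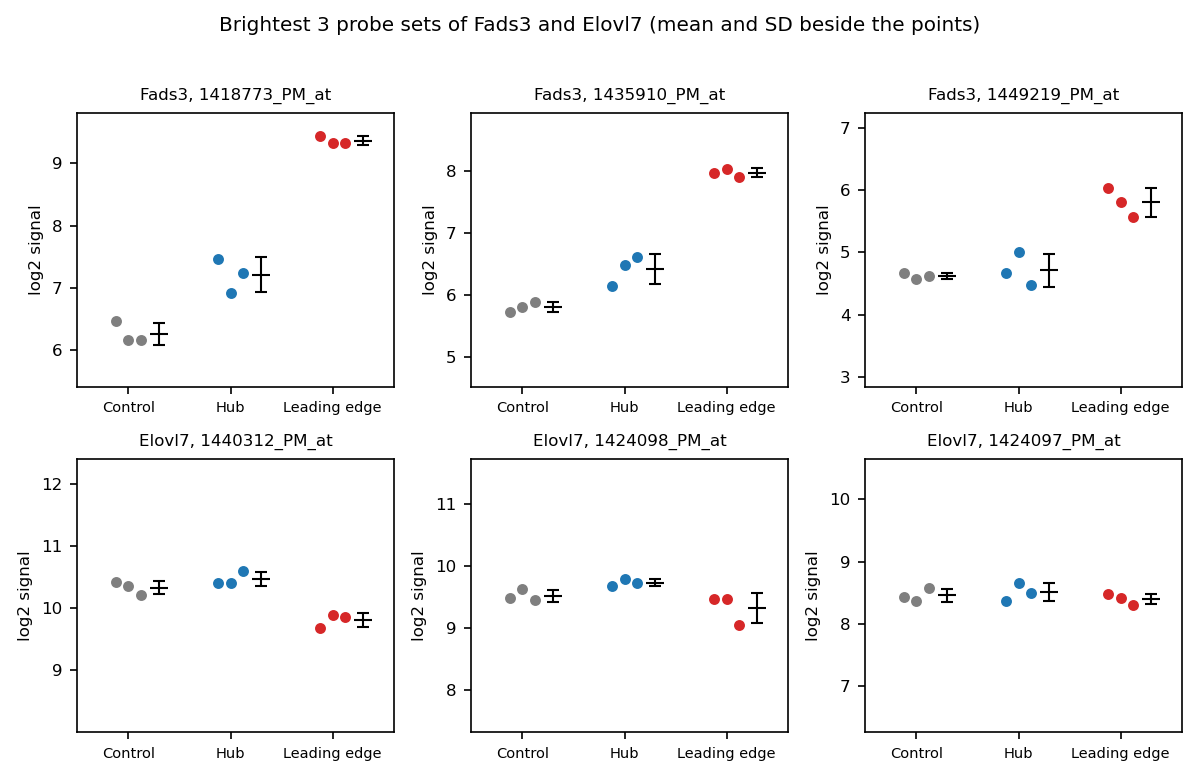
Log2 signal of the 3 brightest probe sets of Fads3 (top) and of Elovl7 (bottom) on each array, with mean and SD of each group beside the points. All 3 probe sets of Fads3 are highest on the LE arrays. Of the 3 Elovl7 probe sets shown, only the brightest has its LE arrays apart from both other groups.

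On chromosome 19 Fads3, Fads2 and Fads1 follow each other in that order in RefSeq (GRCm38.p6). Fads2 and Fads1 make arachidonate and other polyunsaturated fatty acids from dietary precursors, with Fads2 acting first. Both genes were under the dim limit in the mean over the 9 arrays, so their levels are poorly measured. Fads2 was at 6.97, 6.97 and 7.05 at the LE, at 6.84, 6.74 and 6.71 in the hub and at 6.68, 6.82 and 6.49 in the control. The LE arrays lay above all others, by 0.33 ± 0.09 against control (SE, 1.26-fold, limma, adjusted p = 0.0248) and by 0.23 ± 0.09 against the hub, which did not pass (limma, adjusted p = 0.157). Leaving out LE 1, LE 2, LE 3, control 1 or control 3 ended the call against control (limma, adjusted p 0.0519 to 0.0821), as did a fit of those 6 arrays alone (adjusted p = 0.0536). The probe set 1443838_PM_x_at, whose x suffix marks probes that can match other transcripts too, differed by 0.33 between LE and control (limma, adjusted p = 0.00972). Probe set 1419031_PM_at differed by 0.02 and lay between 4.79 and 5.01 on all arrays, near the nonspecific median.

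Fads1 was at 6.33, 6.20 and 6.37 at the LE, at 6.12, 6.20 and 6.21 in the hub and at 6.26, 6.24 and 6.27 in the control. It passed the test in no comparison, with differences of 0.12, 0.05 and -0.08 for LE against hub, LE against control and hub against control. Its other probe set, 1423680_PM_at, passed in none either. The 95% interval for LE against control ran from -0.11 to 0.20, on a signal that lay under the dim limit on every array. The LE to hub differences of the 3 genes were 2.15 for Fads3, 0.23 for Fads2 and 0.12 for Fads1, of which that of Fads3 alone was called.

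Elovl1 elongates saturated and monounsaturated acyl chains to the very long lengths found in ceramides and sphingomyelin, and loss of it in mice is known to break the skin barrier. It was at 12.01, 12.09 and 12.05 at the LE, at 11.56, 11.54 and 11.51 in the hub and at 11.31, 11.24 and 11.18 in the control. The groups did not overlap, and the spread inside them was small, with a pooled SD of 0.046 that only 3.55% of genes undercut, beside a median of 0.12. The LE exceeded the hub by 0.51 ± 0.06 (SE, 1.43-fold, limma, adjusted p = 0.00099) and the control by 0.80 ± 0.06 (1.75-fold, limma, adjusted p = 2.08e-05). The hub exceeded the control by 0.29 ± 0.06 (1.23-fold, limma, adjusted p = 0.0248). That last call was lost without hub 1, hub 2, hub 3, control 2 or control 3 (limma, adjusted p 0.0594 to 0.0795) and in the fit of the 6 arrays alone (0.0589). It was lost as well with the replicate number as a block (limma, adjusted p = 0.0573), although the numbers did not pair the samples. Probe set 1456530_PM_x_at of Elovl1 had the same order, with differences of 0.43, 0.82 and 0.39, all of which passed (limma, highest adjusted p 0.0490). The 3 genes nearest to Elovl1 over the arrays were Denr (root mean square difference 0.05), Surf4 (0.05) and Runx1 (0.06).

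Elovl7, an elongase of saturated long-chain acids, moved the other way. It was at 9.69, 9.89 and 9.86 at the LE, at 10.40, 10.41 and 10.60 in the hub and at 10.41, 10.35 and 10.21 in the control. Every LE array lay under every array of the other groups, while hub and control overlapped. The LE differed from the hub by -0.66 ± 0.09 (SE, 1.58-fold lower, limma, adjusted p = 0.0018) and from the control by -0.51 ± 0.09 (1.43-fold lower, limma, adjusted p = 0.0030). The hub differed from control by 0.14, which was not called (limma, adjusted p = 0.471). The 4 other probe sets had LE to hub differences of -0.40 to -0.11, and none of them passed. Against control only 1441091_PM_at passed, with a difference of -0.42 (limma, adjusted p = 0.0403). Its LE arrays, at 6.29, 6.79 and 6.39, also lay under all hub and control arrays, though every array was under the dim limit. With the mean of all 5 probe sets in place of the brightest the LE to hub difference was -0.36 and remained called (limma, adjusted p = 0.0158). Its nearest profiles were Zfp266 (root mean square difference 0.08), Bscl2 (0.09), a gene of lipid droplet formation, and Klk1 (0.09).

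Elovl5, which elongates polyunsaturated acids between the steps of Fads2 and Fads1, passed in no comparison. It was at 10.67, 10.48 and 10.67 at the LE, at 10.45, 10.85 and 10.84 in the hub and at 11.19, 10.79 and 10.86 in the control. The LE arrays lay under all control arrays, with a difference of -0.34 ± 0.14 (limma, adjusted p = 0.112) and a 95% interval from -0.64 to -0.033. Its probe set 1415840_PM_at gave -0.23 (limma, adjusted p = 0.200). Elovl4, the elongase of the ultra-long chains of acylceramides, was at 8.97, 9.71 and 9.30 at the LE, at 9.55, 9.92 and 9.69 in the hub and at 9.32, 9.33 and 8.86 in the control. All hub arrays exceeded all control arrays, with a difference of 0.55 ± 0.20 that did not pass (limma, adjusted p = 0.143). Its probe set 1451308_PM_at gave 0.57 for the same comparison (limma, adjusted p = 0.192). Between LE and hub Elovl4 differed by -0.39 (limma, adjusted p = 0.281), with a 95% interval from -0.83 to 0.04.

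Scd1 and Elovl6 differed more between arrays of 1 group than between groups. Elovl6 lengthens palmitate to stearate, and Scd1 turns stearate into oleate, so they act in sequence. Scd1 was at 10.31, 11.19 and 11.16 at the LE, at 11.49, 11.59 and 10.70 in the hub and at 12.32, 10.89 and 10.89 in the control. Elovl6 was at 9.03, 9.76 and 9.82 at the LE, at 10.60, 10.37 and 8.95 in the hub and at 11.23, 9.41 and 8.57 in the control. In both genes control 1 was the highest of the 9 arrays, hub 3 the lowest hub array and LE 1 the lowest LE array. The control arrays of Elovl6 spanned a 6.29-fold range. The pooled SD inside groups was 0.62 for Scd1 and 0.97 for Elovl6, and 99.7% and 99.9% of all genes had a smaller one.

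No comparison of Scd1 or Elovl6 passed the test. For Scd1 the differences were -0.38 between LE and hub, -0.48 between LE and control and -0.10 between hub and control. For Elovl6 they were -0.44, -0.20 and 0.24. Their 95% intervals were wide, from -1.40 to 0.44 for Scd1 and from -1.63 to 1.23 for Elovl6 between LE and control, and both held differences of 2-fold. Without control 1 the Elovl6 difference between LE and control became 0.55 and that of Scd1 became -0.0020. The other probe sets of both genes passed in no comparison either. Probe set 1415965_PM_at of Scd1 was again highest on control 1, at 12.16 beside 10.62 and 10.75 on the other control arrays, and 1417403_PM_at of Elovl6 was at 8.56 beside 7.15 and 7.15. Each of the 2 genes was the other's nearest among the desaturases and elongases, at a root mean square difference of 0.39.

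Markers of sebaceous gland cells, which the α6 integrin gate could admit, were unequal over the same arrays (plot of Scd1, Elovl6 and the gland markers). The summed linear signal of 13 sebocyte markers was 7836, 5149 and 3126 on the control arrays, 5759, 5301 and 2708 in the hub and 4094, 6596 and 5153 at the LE. Far2, a fatty acyl-CoA reductase of wax synthesis, was at 11.22, 8.40 and 7.75 in the control, at 10.48, 10.50 and 8.32 in the hub and at 9.30, 10.20 and 10.31 at the LE. Fa2h, the fatty acid hydroxylase, reached 8.96 on control 1 and lay at 5.24 and 5.60 on the other control arrays, and Mc5r, the melanocortin receptor of sebocytes, was at 8.04 there and at 5.74 and 5.99 on the others. Krt79, a keratin of the gland duct, differed from these in being highest on control 2, at 11.53. Of the 13 markers 10 were highest in the control group on control 1 (76.9%, beside 30.8% of all genes), 10 were lowest in the hub on hub 3 (76.9%, beside 31.3%) and 9 were lowest at the LE on LE 1 (69.2%, beside 43.2%). All 3 held for 6 of the 13 markers (46.2%) and for 4.36% of all genes. Between groups, 1 marker, Acsbg1, was called higher and 1, Dgat2, lower at the LE than in the hub, beside 5.39% and 5.23% of all genes. Against control 2 were higher and 1 lower at the LE, beside 11.9% and 10.8%. In the hub 0 were called against control, beside 4.16% and 3.12%. Counts this small cannot be told from those shares. Cidea, Elovl3, Plin5, Prdm1 and Mogat1 were under the dim limit on every array. The part of these cells in the spread of Scd1 and Elovl6 was not tested. By the same measure, and chosen after the values were seen, the genes nearest to Scd1 were Tlcd2 (0.23), Lhpp (0.25) and Sdr16c6 (0.27), and those nearest to Elovl6 were Cers4 (0.39), Tlcd2 (0.41) and Cyp2f2 (0.42).

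**Figure D4:**
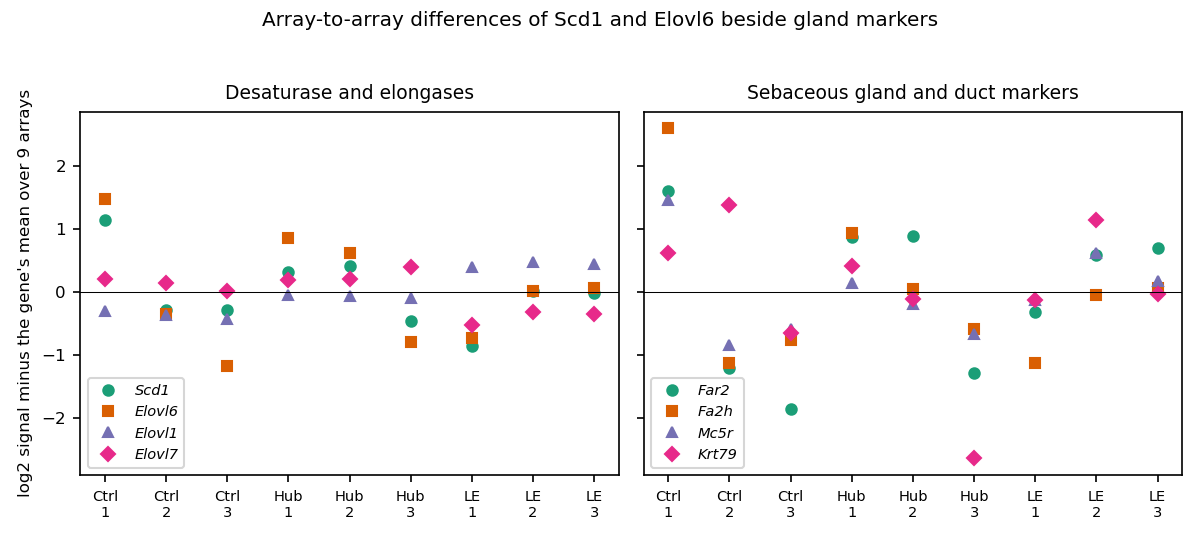
Log2 signal of 4 desaturase and elongase genes (left) and 4 sebaceous gland and duct markers (right) on each array, as the difference from the gene's own mean over the 9 arrays. Scd1, Elovl6, Far2 and Fa2h are highest on control 1, and hub 3 and LE 1 are the lowest arrays of their groups. Control 3 is lower still for Elovl6 and Far2. Elovl1 has the same order inside the groups, but Elovl1 and Elovl7 stay close together inside each group.

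Other cell markers differed between the groups in which Fads3, Elovl1 and Elovl7 differed. The summed signal of 10 markers of differentiating keratinocytes was 16015 to 20032 at the LE, 29336 to 31504 in the hub and 28015 to 30237 in the control. Of the 10, 5 were called lower and 0 higher at the LE than in the hub, beside 5.23% and 5.39% of all genes. Against control 4 were lower and 1, Ivl, was higher, beside 10.8% and 11.9%. Ivl differed by 0.57, a call lost in 4 of the 9 fits that left out 1 array. Krt10 was at 11.92, 10.96 and 10.90 at the LE and at 12.70 to 12.75 in the hub. The 12 myeloid markers summed to 900 to 1508 at the LE, 871 to 886 in the hub and 863 to 870 in the control. Cd14 and Cxcr2 were called higher at the LE than in the hub, and those and Lyz2 higher than in the control, where the Lyz2 call was lost in 8 of the 9 fits that left out 1 array. Of the 12, 6, Ptprc, Itgam, Adgre1, Csf1r, Ly86 and Cxcr2, were under the dim limit on every array. Lyz2 was at 8.25, 5.36 and 7.12 at the LE, Cd14 at 7.28, 6.64 and 6.91 and Cxcr2 at 6.08, 6.40 and 6.43. Of the LE arrays, LE 2 was lowest for Lyz2 and Cd14 and LE 1 for Cxcr2. The 9 fibroblast markers summed to 990 to 1260 at the LE, 1740 to 1760 in the hub and 1886 to 2062 in the control. Of the 9, 1 was called lower at the LE than in the hub and 2 than in the control, beside 5.23% and 10.8% of all genes. Counts this small cannot be told from those shares. Col1a2, Col3a1, Pdgfra, Pdgfrb, Lum and Twist2 were under the dim limit throughout. The 9 endothelial markers summed to 724 to 2135 at the LE, 723 to 1163 in the hub and 562 to 686 in the control. In each comparison 0 of them were called, a count that the shares of all genes do not set apart either. The part of such cells in the results was not tested.

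The genes around the desaturases and elongases were counted over 8 lists of 151 measured genes. At the LE 21 were higher (13.9%) and 14 lower (9.27%) than in the hub, beside 5.39% and 5.23% of all genes. Against control 38 were higher (25.2%) and 25 lower (16.6%) at the LE, beside 11.9% and 10.8%. In the hub 16 were higher (10.6%) and 5 lower (3.31%) than in the control, beside 4.16% and 3.12%. The single lists are small, and their counts are read beside the same shares of all genes. Only 8172 of the 17097 genes had a mean at or over the dim limit. The lists were not matched to all genes in signal and were chosen with earlier results known, so a larger share is a description only. Without hub 1, hub 2 or hub 3 the 16 became 10, 9 and 10, and the 14 became 9, 9 and 8 without hub 2, LE 1 or LE 3. The 5 became 2 and 3 without hub 2 or hub 3, and 3 without control 1 or control 2. The genes named next kept their call when any 1 of the 9 arrays was left out, except where a loss is stated.

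The measured partners that complete each round of elongation or supply its electrons numbered 12. Of these, 4 were higher (33.3%) and 2 lower (16.7%) at the LE than in the control, beside 11.9% and 10.8% of all genes. Against the hub 1 was higher (8.33%) and 0 lower, beside 5.39% and 5.23%. Hacd1, a dehydratase of the cycle, was at 9.09, 9.42 and 9.15 at the LE and at 7.49, 7.48 and 8.21 in the control, a difference of 1.49 ± 0.19 (limma, adjusted p = 0.000371). Cyb5b, a cytochrome that carries electrons, differed by 0.68 between the same groups, and Cyb5r4, a reductase, by 0.62. Fatty acid synthesis and its regulators held 2 higher and 2 lower genes of 20 at the LE against control (10.0% each), and 0 against the hub. Those 10.0% did not exceed the 11.9% and 10.8% of all genes. Only the call of Mlx held when any 1 of the 9 arrays was left out. Among 4 measured relatives of the desaturases and elongases, Degs2, which makes the hydroxylated base of phytoceramides, was higher at the LE by 1.30 than in the hub and by 1.26 than in the control. Its LE arrays were at 8.08, 8.71 and 8.55, beside 6.95 to 7.38 on the 6 other arrays. Of these, hub 1, hub 2, control 2 and control 3 lay under the dim limit.

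The ceramide list, where the products of Elovl1 and Elovl4 go, had 6 of 25 genes higher (24.0%) and 2 lower (8.0%) at the LE than in the hub, beside 5.39% and 5.23% of all genes. It had 9 higher (36.0%) and 4 lower (16.0%) than in the control, beside 11.9% and 10.8%. Cers3, the ceramide synthase for very long chains, was at 7.92 to 8.05 at the LE, at 6.95, 7.62 and 7.40 in the hub and at 6.54, 6.30 and 6.47 in the control. It was higher at the LE than in the control by 1.55 and in the hub than in the control by 0.89, with all control arrays under the dim limit. Alox12b, a lipoxygenase that oxidises acylceramide, was higher at the LE than in both, with fitted differences of 1.49 and 1.81 from hub and control arrays that all lay under the dim limit. Sptlc1, a subunit of the enzyme that starts sphingolipid synthesis, exceeded them by 0.69 and 1.05, and Ugcg, the glucosylceramide synthase, exceeded the hub, which lay under the dim limit, by 0.88. Sptlc3, another subunit of that first enzyme, was lower at the LE than in the control, with a difference of -1.29. Subunits of the same enzyme thus differed in direction.

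Of 25 genes for arachidonate release and eicosanoids, 2 were higher (8.0%) and 4 lower (16.0%) at the LE than in the hub. Over all genes the shares were 5.39% and 5.23%. Of these calls against the hub, only that of Hpgd held when any 1 of the 9 arrays was left out. At the LE 5 were higher and 6 lower (24.0%) than in the control, beside 11.9% and 10.8% of all genes. Ptgs2, the inducible cyclooxygenase, exceeded the control by 1.64 at the LE, and Ptges, a prostaglandin E synthase, exceeded it by 1.23 at the LE and by 0.73 in the hub. Hpgd, which breaks prostaglandins down, was lower at the LE, with differences of -1.20 from the hub and -1.48 from the control, and its LE arrays lay under the dim limit. Ptger4, a prostaglandin E receptor, was at 5.59, 5.57 and 5.37 at the LE, at 5.98, 5.96 and 5.77 in the hub and at 7.83, 7.61 and 7.71 in the control. The differences from control were -2.21 at the LE and -1.81 in the hub, where all 6 arrays of the wound lay under the dim limit.

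Glycerolipid assembly held 6 higher (25.0%) and 3 lower (12.5%) genes of 24 at the LE against the hub, beside 5.39% and 5.23% of all genes. It held 10 higher (41.7%) and 3 lower (12.5%) against the control, beside 11.9% and 10.8%. Dgat1, which makes triglyceride, was higher at the LE by 0.96 than in the hub and by 1.52 than in the control. Mboat1, a lysophospholipid acyltransferase, was higher by 0.77 and 1.59, and higher in the hub than in the control by 0.83. Dgat2 of the same list went the other way from Dgat1, with LE differences of -0.60 from the hub and -0.41 from the control. Both were called (limma, adjusted p = 0.0119 and 0.0357) but lost in 1 and 5 of the 9 fits that left out 1 array. Among genes that activate or carry fatty acids, 3 of 19 were higher and 3 lower (15.8% each) at the LE than in the hub. Over all genes the shares were 5.39% and 5.23%. Acsbg1, an acyl-CoA synthetase that is also 1 of the 13 sebocyte markers, exceeded the hub by 1.69. Dbi, the acyl-CoA binding protein, differed from the hub by -0.46. Fabp5, the epidermal fatty acid binding protein, was at 13.18, 13.07 and 13.03 at the LE, at 13.04 to 13.06 in the hub and at 12.42, 12.16 and 11.93 in the control, which both the LE and the hub exceeded, by 0.93 and 0.89. Of 22 genes of fatty acid oxidation, 3 were higher (13.6%) and 6 lower (27.3%) at the LE than in the control. Over all genes the shares were 11.9% and 10.8%. The regulator Ppard was higher in every comparison, by 1.03, 1.89 and 0.86, while Eci1, a mitochondrial isomerase, was lower at the LE, by differences of -0.67 from the hub and -0.99 from the control.

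**Figure D5:**
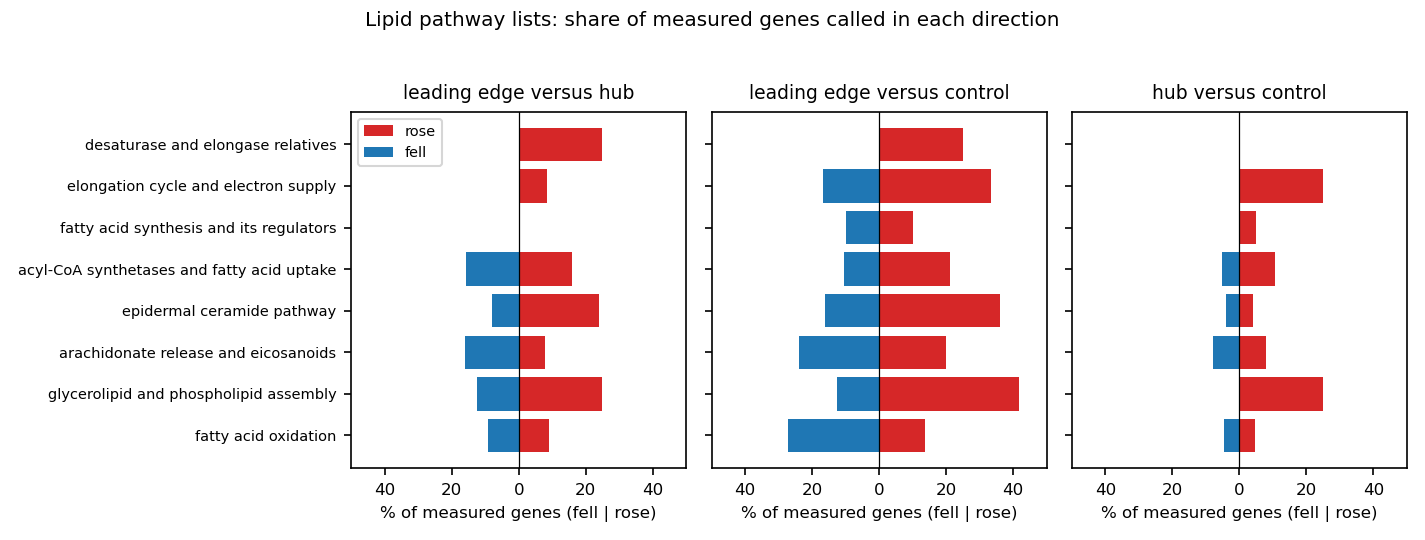
Share of the measured genes of each of 8 lipid lists that were called higher (red, right) or lower (blue, left) in each comparison. Both directions occur in most lists, and the share is larger in both directions for LE against control than for the other comparisons in the elongation cycle, synthesis, ceramide, eicosanoid and oxidation lists. The same holds over all genes, with 11.9% higher and 10.8% lower for LE against control. These shares were 5.39% and 5.23% for LE against hub, and 4.16% and 3.12% for hub against control.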

How the data were processed

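RNA of 300 sorted cells was amplified and hybridised to Affymetrix Mouse Genome PM strip arrays. The deposited values are log2 signals that the authors made with RMA (version not given in the sources used here). RMA makes the arrays share 1 distribution, so a change of total RNA cannot be measured. Groups came from the deposited labels. Probe sets with 1 symbol in the platform annotation were used (28898 of 45141), of which 28689 matched RefSeq, and the brightest stood for its gene. All 17097 genes entered 1 linear model of group means over the 9 arrays (limma 3.58.1, R 4.3.3, lmFit and eBayes), with two-sided tests and Benjamini-Hochberg adjustment over all genes, called under 0.05. Array number limits the precision. Arrays correlated at 0.988 to 0.995 inside groups and 0.964 to 0.986 between groups, and 0 pairs were identical. The fit was tested on simulated data.

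The methods give no test but a fold over 2 in each replicate, which was counted as an alternative. Others were the replicate number as a block, array weights, a variance trend, median centring, repeated quantile normalisation, removal of dim genes, other probe set rules, the 6 arrays compared and each array left out. The genes and lists were chosen with earlier results of these data known. All measured desaturases and elongases were named, and from each list at most the 4 largest called, non-overlapping genes per comparison and direction were eligible. Other lists held markers of basal and differentiating keratinocytes, sebocytes, adipocytes, myeloid cells, fibroblasts, endothelium and melanocytes. The 6 adipocyte markers summed to 341 to 1052 over the 9 arrays, with 4 under the dim limit, and the 7 melanocyte markers to 474 to 909, also with 4.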

Additional observations from a re-analysis of the deposited data

Results flagged for a closer look

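Fads3, Elovl1 and Elovl7 had an effect against control that differed between LE and hub. Because the control arrays are shared, this difference equals the LE to hub comparison. It was 2.15 for Fads3, with effects of 3.10 at the LE and 0.95 in the hub. For Elovl1 it was 0.51, with effects of 0.80 and 0.29. For Elovl7 it was -0.66, with effects of -0.51 and 0.14. All passed the test (limma, adjusted p = 2.36e-05, 0.00099 and 0.0018).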

How the results depend on the processing

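The calls of Fads3 in 3 comparisons and of Elovl1 and Elovl7 at the LE in 2 held in all 18 alternatives. In these the LE to hub difference ran from 1.60 to 2.28 for Fads3, 0.47 to 0.53 for Elovl1 and -0.70 to -0.36 for Elovl7. Fads2 against control was lost in 6 alternatives of 17 and Elovl1 between hub and control in 7 of 18. With a fold of at least 2 besides the adjusted p, the higher genes numbered 1, 1 and 0 and the lower 0, 0 and 0 (LE to hub, LE to control, hub to control). Over all genes the calls then fell from 1816, 3891 and 1244 to 319, 803 and 186. With a fold over 2 in each same-numbered pair, the higher genes numbered 1, 1 and 0 and the lower 0, 0 and 0, and calls over all genes 178, 515 and 89. Between hub and control, 1 gene was higher in place of 2 with the replicate block and in the fit of 6 arrays, where calls over all genes numbered 766, and 1 to 2 were when an array was left out. With an array left out, calls over all genes ran from 699 (without hub 3) to 1153, with 774 without hub 2. The replicate numbers did not pair the samples, since deviations of 9 same-numbered pairs correlated at -0.18 to 0.08. With the replicate block the calls over all genes were 1629, 3661 and 1006, and it ended no other call of these genes.

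Directions that were not called turned in 7 cases. Elovl6 between LE and control was 0.05 without LE 1 and 0.55 without control 1, in a range of -0.78 to 0.55 over the arrays left out. Elovl4 between them was -0.038 without LE 2, the lowest value, and at most 0.33. Between hub and control, Scd1 was 0.18 without hub 3 and 0.38 without control 1, and Elovl6 was -0.07 without hub 1 and -0.34 without control 3, in a range up to 0.99. The cause was not tested. Signals under the dim limit, as for Fads1 and Fads2, are poorly measured.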

Other observations

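Fads2b, a desaturase gene outside the 10 and named here after its values were seen, was highest in the hub. It was at 8.25, 8.64 and 8.50 in the hub, at 7.73, 8.14 and 7.74 at the LE and at 7.95, 7.16 and 7.44 in the control. The hub exceeded the control by 0.95 ± 0.20 (limma, adjusted p = 0.0198). The LE differed from the hub by -0.59, which did not pass the test.

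The order of arrays seen for Scd1 and Elovl6, namely control 1 highest in its group, hub 3 lowest and LE 1 lowest, held for 5 of 19 genes of fatty acid activation and uptake (26.3%), 6 of 22 of oxidation (27.3%) and 4 of 20 of synthesis. It held for 1 of 24 genes of glycerolipid assembly (4.17%) and for 4.36% of all genes. Of the 9 measured desaturases and elongases 3 had it (33.3%), Elovl1 besides Scd1 and Elovl6. No cause was tested.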
